A study of Drosophila melanogaster with 3 samples.

Results

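Intronic peaks near start sites were the peaks of a chromatin immunoprecipitation (ChIP-seq) set whose summit, the base of highest signal, lay inside a gene body but in no annotated exon. The summit also had to lie more than 500 bp and at most 5000 bp from the nearest transcript start of any gene. Of 6469 peaks that passed the authors' irreproducible discovery rate (IDR) analysis, which keeps calls that recur between replicates, 1830 (28.3%) met this rule on build dm6. The choice used position alone, so signal and replicate support were not part of it beyond membership of the IDR set. The rule itself requires a host gene and a start nearby, so host genes are not independent of it. Bases that meet the rule had 39.2% G + C, against 42.1% of all sequenced bases. The animals were a transgenic Drosophila melanogaster line that stably expressed the protein of CG8632, named ZnT49B in the annotation, with green fluorescent protein (eGFP) fused to its C-terminus. Whole animals at the white prepupa stage, of unknown age and with both sexes pooled, gave 3 samples labelled as biological replicates 1 to 3 of 1 group. Chromatin was sheared by sonication, and an antibody against GFP was used, although another label field gives CG8632 as its target. Control samples were not analysed here, and no label names a promoter that drives the fusion. Since nothing says how the replicates were raised, their spread measures only variation between these samples. In a whole animal, a strong signal in few cells and a weak signal in many cells cannot be told apart.

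Introns are removed from the transcript, but their DNA can hold enhancers, which are stretches that bind transcription factors and act on a promoter at a distance. In flies, first introns are often long and hold many such elements, and genes with several alternative promoters have starts that lie inside their own introns. The white prepupa stage follows the pulse of the steroid ecdysone that ends larval life. By its name ZnT49B belongs to the ZnT family of membrane transporters of zinc.

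Sequences of 201 bp centred on the summit are printed for the 3 strongest of these peaks, followed by strong peaks that hold a word of 8 letters described with the base composition. They are read from the RefSeq sequence of build dm6, plus strand. The strongest lay in a very short intron of CG11050 and its window is chr2L:6612604-6612804, so the ends are exon. That of ush lay at chr2L:480950-481150 and that of Lk6 at chr3R:11760944-11761144. Capitals mark GAGAGAG in Lk6, CACTGAGA or its reverse complement in ImpL2 (chr3L:4228289-4228489) and Spn (chr3L:2552608-2552808), and CACAGTGG or its reverse complement in CG32264 (chr3L:3785141-3785341) and prage (chrX:1830702-1830902). The prage window also holds GAGAGAG, left in lower case.
CG11050: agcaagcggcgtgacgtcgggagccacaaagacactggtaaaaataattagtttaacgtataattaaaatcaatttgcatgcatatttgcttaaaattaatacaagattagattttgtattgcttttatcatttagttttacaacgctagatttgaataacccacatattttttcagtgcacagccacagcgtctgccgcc
ush: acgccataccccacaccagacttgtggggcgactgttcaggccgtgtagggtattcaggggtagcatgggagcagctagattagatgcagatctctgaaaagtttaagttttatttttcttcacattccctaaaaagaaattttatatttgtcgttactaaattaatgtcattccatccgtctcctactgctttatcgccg
Lk6: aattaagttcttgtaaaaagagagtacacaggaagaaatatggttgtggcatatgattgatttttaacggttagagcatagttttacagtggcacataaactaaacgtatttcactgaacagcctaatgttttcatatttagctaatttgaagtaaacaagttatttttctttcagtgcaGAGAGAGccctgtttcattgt
ImpL2: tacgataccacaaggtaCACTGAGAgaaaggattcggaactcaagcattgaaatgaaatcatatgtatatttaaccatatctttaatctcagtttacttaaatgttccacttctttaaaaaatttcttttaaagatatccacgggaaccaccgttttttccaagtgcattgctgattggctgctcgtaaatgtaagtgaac
Spn: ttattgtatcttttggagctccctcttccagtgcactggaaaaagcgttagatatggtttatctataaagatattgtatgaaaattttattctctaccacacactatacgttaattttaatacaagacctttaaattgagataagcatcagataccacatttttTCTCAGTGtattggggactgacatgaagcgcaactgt
CG32264: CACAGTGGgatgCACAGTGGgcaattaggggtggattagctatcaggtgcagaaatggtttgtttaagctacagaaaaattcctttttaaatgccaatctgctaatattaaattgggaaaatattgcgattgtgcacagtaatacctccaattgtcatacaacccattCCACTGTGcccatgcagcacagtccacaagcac
prage: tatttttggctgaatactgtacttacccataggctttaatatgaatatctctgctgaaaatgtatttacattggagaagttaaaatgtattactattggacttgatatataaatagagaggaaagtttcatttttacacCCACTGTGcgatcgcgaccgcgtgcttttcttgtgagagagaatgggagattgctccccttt

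The deposited replicate lists mix peaks with background calls on purpose and held 29322 to 30000 calls each. From each, the strongest 6469 calls, as many as in the IDR set, were used wherever a share or density per replicate is given. The 6469 IDR peaks are the top of a list called on the 3 replicates together, interval by interval, and the IDR set was also derived from the replicate lists, so support in the replicates is not independent of the set. With 3 replicates, an exact sign-flip test of a ratio or difference cannot give a two-sided p below 0.25. The density ratio, the ratio of first to later introns, the signal ratios and the GC difference each had that p, so replicate values are given in place of tests.

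The strongest intronic peak near a start was also the strongest of the whole IDR set. It lay in intron 2 of CG11050 (FBgn0031836; 2L, 6612461 to 6612914), 1017 bp downstream of the nearest of that gene's 3 starts. The intron was 0.14 kb long, so the interval reached into the exons on both sides. The matching calls had signals of 1152 in replicate 1, 803 in replicate 2 and 968 in replicate 3, and ranked 2, 3 and 1 in their lists. Replicate 2 was thus the lowest in signal while the rank stayed within the first 3 calls of each list. The second peak lay in the first intron of ush, which encodes a partner protein of GATA transcription factors (FBgn0003963; 2L, 480875 to 481297). Its signals were 1189, 769 and 779 in replicates 1 to 3, with ranks 1, 4 and 8. Its summit was 1362 bp from the nearest start, which belongs to cbt, and 4830 bp downstream of the nearest start of ush itself. The peak in the first intron of Lk6, a protein kinase that acts on a translation initiation factor, had signals of 792, 666 and 771 and lay 965 bp upstream of an internal start of Lk6. The 3 signals of the Lk6 peak lay closer together than those of ush.

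Among the 15 peaks of highest signal, 13 were lowest in replicate 2 and 13 were highest in replicate 1. Over the whole set replicate 2 was again mostly the lowest, while the highest signal was shared more between replicates 1 and 3. Of 1789 intronic peaks near starts with a call of any rank in all 3 replicates, 1436 had their lowest signal in replicate 2, 173 in replicate 1 and 180 in replicate 3. The highest signal was in replicate 1 for 1037, in replicate 3 for 703 and in replicate 2 for 49. The scaling of signal between libraries is unknown, so values of different replicates are compared by rank or as ratios within a replicate. The summits of 1 pair among the 15 shared an interval: both summits in the first intron of CG9663 lay in 1 interval and were matched by the same replicate calls, with signals of 584, 379 and 510. The 15 peaks were thus 14 separate intervals.

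**Figure D1:**
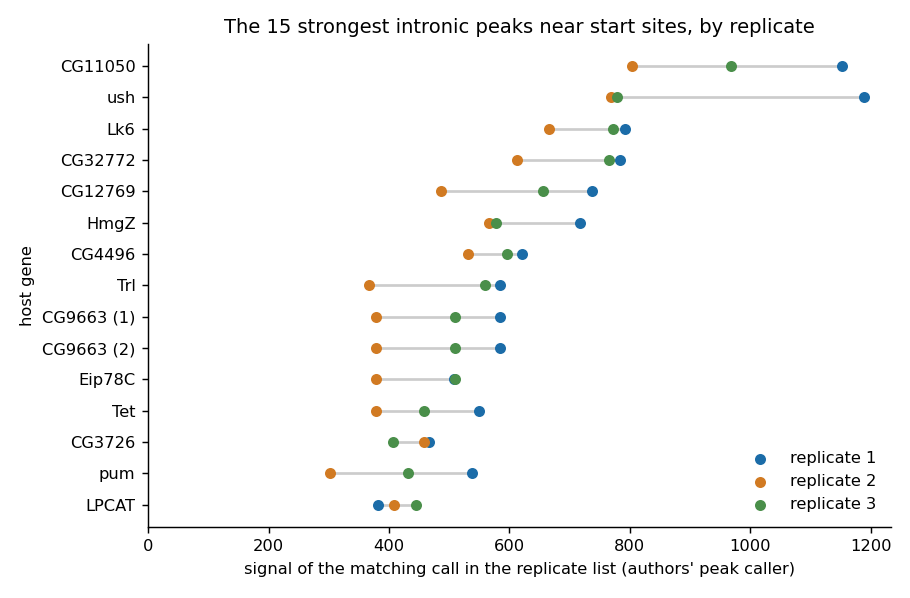
Signal of the matching call in each replicate list for the 15 intronic peaks near starts of highest signal in the IDR set, in order of that signal; points are replicates and grey bars join the lowest to the highest. Replicate 2 was the lowest for 13 of the 15, and the CG11050 peak ran from 803 to 1152.

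The other hosts among the 15 strongest peaks included genes of known function and genes known only by a CG number. Trl, which encodes the GAGA factor, held a peak in intron 2 (3L, 14759320 to 14759723) with signals of 584, 367 and 560 in replicates 1 to 3. Its summit lay 1539 bp upstream of an internal start of Trl, and its rank was 34, 57 and 37. Tet, which encodes a dioxygenase of the TET family, held one in an intron of 54.9 kb with signals of 550, 378 and 458. Both peaks lay in later introns, and in both replicate 2 was lowest and the ranks stayed within 34 to 63. HmgZ, which encodes a protein with an HMG box that binds DNA, had signals of 717, 566 and 577 in its first intron, and the summit also lay within the gene HmgD. At pum, which encodes a translational repressor that binds RNA, the signals were 537, 303 and 432. The pum summit lay in intron 3 of that gene and in the first intron of the overlapping lncRNA:CR45196. The others were CG32772 (783, 613 and 765), CG12769 (737, 487 and 656), CG4496 (620, 531 and 596), Eip78C (508, 379 and 509), CG3726 (466, 458 and 406) and LPCAT (382, 408 and 445). CG3726 and LPCAT were the only ones of the 15 peaks in which replicate 2 was not the lowest.

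Intronic bases near starts carried more peaks per base than the rest of the genome as a whole. The 1830 peaks fell on 24.6 Mb of bases that meet the rule, or 17.9% of the sequenced bases, which is 74.4 peaks per Mb against 41.2 per Mb elsewhere, a ratio of 1.80. The ratio was 1.78, 1.88 and 1.77 in replicates 1 to 3, or 1.81 ± 0.0607 (SD, n = 3), above 1 in every replicate. Bases within 500 bp of a start carried 125 peaks per Mb, introns farther than 5000 bp from any start carried 35.9, and intergenic bases 500 to 5000 bp from a start carried 46.1. In the replicates the intronic bases near starts had 74.6 ± 1.78 peaks per Mb and the deep intronic bases 35.1 ± 1.39 (SD, n = 3), so these groups did not overlap. In density these bases stood between start sites and the other non-exonic bases.

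First introns held most of these peaks. A first intron here is intron 1 of at least 1 transcript of any gene that holds the base, and every other intronic base is later. By this count 1415 peaks (77.3%) lay in a first intron, at 100.2 per Mb, and 415 in later introns, at 39.6 per Mb, a ratio of 2.53. In the replicates the ratio was 2.48, 2.36 and 2.47, or 2.44 ± 0.0649 (SD, n = 3), and first introns had the higher density in all 3. Of the 1415, 882 lay in intron 1 of every transcript there and 533 in intron 1 of some and a later intron of others. The size of the ratio rested on this definition. It was 1.63 ± 0.0490 when only bases in intron 1 of every transcript counted as first, and 1.79 ± 0.0798 when the transcript that spans most bases decided (SD, n = 3).

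The density in first introns was highest next to the start and lower at every greater distance, and the gap to later introns was present at each distance. At 500 to 1000 bp from a start, first introns had 134 ± 2.37 peaks per Mb and later introns 56.4 ± 2.97 (SD, n = 3). At 2000 to 3000 bp these were 86.6 ± 2.09 and 37.3 ± 2.69. At 3000 to 4000 bp they were 75.7 ± 2.79 and 33.5 ± 2.71, and at 4000 to 5000 bp they were 80.8 ± 4.19 and 38.1 ± 2.37. First introns were thus lowest at 3000 to 4000 bp, and each replicate was higher again in the last step. Replicate values of first and later introns did not overlap in any of the 5 distance bins. Intergenic bases lay close to later introns at these distances: intergenic bases had 63.6 ± 1.79 peaks per Mb at 500 to 1000 bp and 36.0 ± 1.64 at 4000 to 5000 bp. Exonic bases at the same distances had far fewer, 9.79 ± 0.424 per Mb at 500 to 1000 bp.

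The densities of the 2 kinds of intron lay closer together in introns of over 3 kb than in shorter ones. In introns of up to 1 kb, first introns had 80.9 ± 4.40 peaks per Mb and later introns 12.5 ± 1.503 (SD, n = 3). From 1 to 3 kb the values were 106 ± 1.97 and 26.1 ± 3.24, and from 3 to 10 kb they were 108 ± 2.61 and 57.3 ± 1.74. From 10 to 30 kb they were 96.2 ± 1.07 and 54.6 ± 2.27, and above 30 kb they were 77.8 ± 9.22 and 56.1 ± 2.58. Later introns thus went from their lowest density in short introns to a plateau above 3 kb, while first introns already had a high density below 1 kb. The peaks themselves lay mostly in long introns: the shortest intron around a summit had a median length of 7.75 kb, and 1449 of 1830 (79.2%) lay in introns of over 3 kb. Most bases that meet the rule lay in such introns too. Of 24.6 Mb, introns of 3 to 10 kb held 7633 kb, those of 10 to 30 kb 6715 kb and longer ones 2919 kb. Only 24 lay in an intron no longer than the peak interval, and 147 intervals (8.03%) also covered an exonic base.

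**Figure D2:**
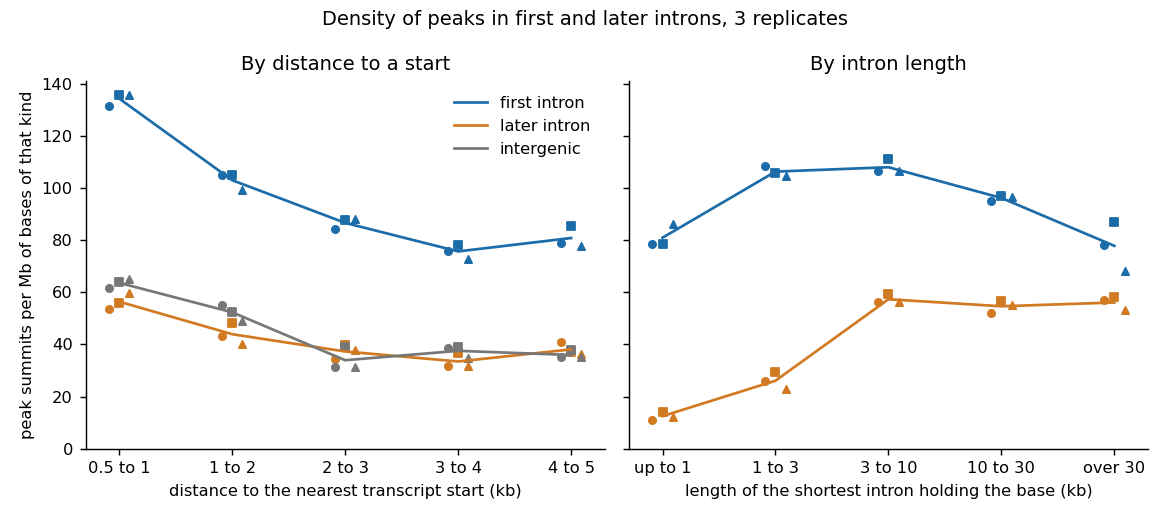
Peak summits per Mb of bases of the same kind, by distance to the nearest transcript start (left) and by length of the shortest intron holding the base (right); lines are means of 3 replicates, and circles, squares and triangles are replicates 1, 2 and 3. First introns lie above later introns in every bin, 134 against 56.4 per Mb nearest the start and 80.9 against 12.5 in introns of up to 1 kb.

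The nearest start was often not the one that the host gene uses at its 5′ end. For 1043 peaks it was a start of the host with the summit downstream of it, for 374 it was a start of the host with the summit upstream of it, and for 413 it was a start of another gene. The Lk6 and Trl peaks belong to the second kind and the ush and Eip78C peaks to the third. The median distance to the nearest start was 1742 bp, with quartiles of 971 and 2962 bp. Just inside the lower limit lay prage at 501 bp with a signal of 1058, CG31637 at 502 bp with 299 and Nost at 503 bp with 149. Just outside it lay Nadk1a and cpo at 497 bp with 141 and 114.5, and sdt at 498 bp with 215. Inside the upper limit were Pdk at 4979 bp (383), E2f1 at 4982 bp (480) and Pde11 at 4993 bp (279), and beyond it lncRNA:let7C at 5001 bp (216), dar1 at 5010 bp (105.4) and shep at 5011 bp (350). These 12 values are given as a description of the edges.

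Signal differed little between kinds of position. The 1830 peaks had a median IDR signal of 193, with quartiles of 137 and 311 and a range of 104.8 to 2923. First introns had a median of 195 and later introns of 193. Within each replicate, the median signal of intronic calls near starts was 76.9, 47.8 and 70.96 in replicates 1 to 3, that of deep intronic calls 70.4, 43.9 and 65.6, and that of start-site calls 80.7, 55.0 and 73.8. The intronic calls near starts were higher than deep intronic ones in all 3 replicates, with a ratio of 1.09 ± 0.00525 (SD, n = 3). They were lower than start-site calls in all 3, with a ratio of 0.928 ± 0.0511. Against intergenic calls near starts the ratio was 1.05 ± 0.0420, and in replicate 3 the medians were 70.96 and 70.8.

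Replicate support followed signal. A peak counted as supported when its interval overlapped 1 of the strongest 6469 calls of a replicate. The IDR signal was called on the same replicates together, so a fall of support with signal is partly built into this definition. All 3 replicates supported 1322 of the 1830 peaks, or 72.2% (95% Wilson interval 70.1 to 74.2%, counting error only), against 70.1% of all IDR peaks. A further 350 peaks were supported by 2 replicates, 149 by 1 and 9 by none. The share was 71.6% for start-site peaks, 68.0% for deep intronic peaks and 67.6% for intergenic peaks near starts, so the intronic share near starts was close to the background. With the IDR set split in order of signal into 4 groups of like size, 99.4%, 96.0%, 72.2% and 19.2% of the intronic peaks near starts were supported in all 3. At any rank of the relaxed lists, 1825, 1802 and 1822 of the peaks had an overlapping call in replicates 1 to 3. These weak calls include background, so a match there is a weaker statement.

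**Figure D3:**
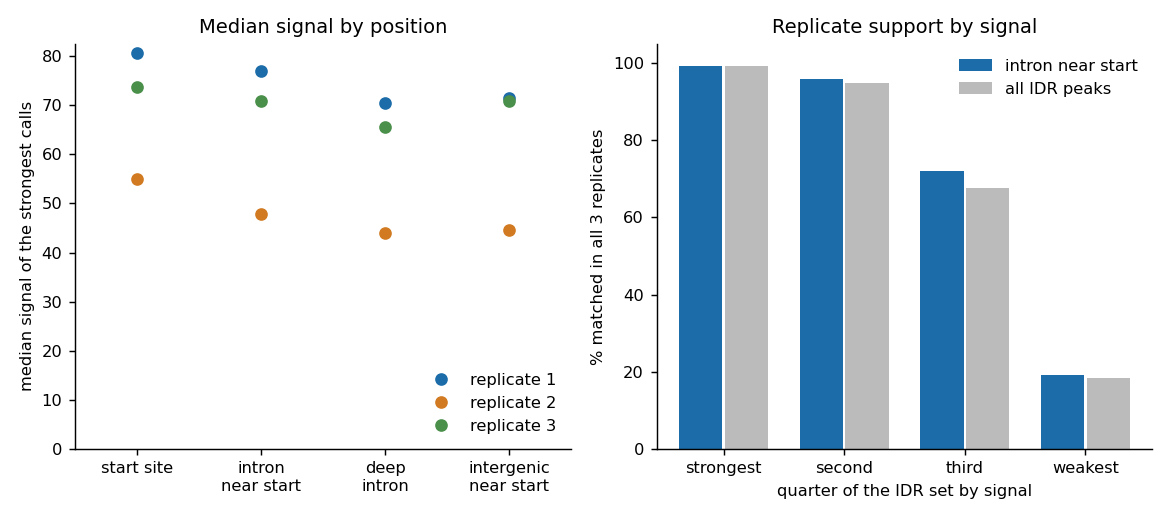
Left, median signal of the strongest 6469 calls of each replicate by position. Right, percent of IDR peaks that overlap a strongest call in all 3 replicates, by 4 groups of the IDR set in order of signal, for intronic peaks near starts (blue) and all IDR peaks (grey). Support goes from 99.4% in the strongest group to 19.2% in the weakest.

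Where a call was present, its summit lay close to that of the IDR set, with a median offset of 16, 27 and 22 bp in replicates 1 to 3. The SD over replicates was a median of 28.0% of the mean signal (n = 1789 peaks), which includes any difference in scale between lists. At the lower end, the peak in CG42673 had signals of 80.1, 10.1 and 33.7 in replicates 1 to 3 and ranked 29271 in replicate 2. The peak in Dys, which encodes dystrophin, had 39.8, 10.7 and 60.7, and that in CG44325 had 52.3, 10.8 and 56.8. These 3 had the lowest signals in any replicate, and in each the low replicate was replicate 2. Intervals were mostly of 1 fixed width: 1442 of 1830 were 436 bp wide. Overlapping intervals joined the 1830 peaks into 1735 separate regions.

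The peaks fell in introns of 1055 genes, of which 1013 were protein-coding. This was 11% of the 9548 genes that have any intronic base meeting the rule. A single peak was found in 614 hosts, 2 in 235, 3 or 4 in 145 and 5 or more in 61, and those 61 hosts held 395 peaks. Host genes were long: they had a median of 6.70 kb of eligible intron against 0.352 kb in genes without a peak. The share of genes with a peak went from 1.09% of genes with under 1 kb of eligible intron to 54.0% of those with over 12 kb.

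The gene with most peaks was lncRNA:CR44357 on the X chromosome, with 17, and CG1677, which overlaps it and shares peaks with it, had 15. Their strongest peak (958.7 in the IDR set; 358, 243 and 346 in replicates 1 to 3) also lay in the first intron of Dok, an adaptor protein gene nested there. Another peak in an intron of CG1677 had 280, 170 and 257 and lay 730 bp from a start of brk, a transcriptional repressor that opposes Dpp signalling. The gene shn, a zinc finger factor of the Dpp pathway, held 12 peaks, 9 of them in a first intron and 8 supported in all 3 replicates. Their signals ran from 106 to 1056. Of all 1830 peaks, 77.3% lay in a first intron and 72.2% were supported in all 3 replicates. The gene tou, which encodes a chromatin protein, held 12 peaks, all in first introns, with a highest signal of 405. The gene ush held 10, all in first introns and spread over 41.9 kb, with a median signal of 162 against 2806 for the strongest. Svil held 10, of which 9 were in a first intron. Most peaks of lncRNA:CR44357 and CG1677 lay in later introns, with 3 of 17 and 2 of 15 in a first intron, unlike those of the other 4 genes. Their median signals of 282 and 285 were also above the 193 of all 1830 peaks.

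Hosts carried a peak at a start more often than other genes. Of the 1055 hosts, 40.3% also had a start-site peak, against 17.4% of the 8493 genes with eligible introns and no intronic peak near a start. In the replicates the shares were 41.8 ± 4.18% and 18.1 ± 0.633% (SD, n = 3), and hosts had the higher share in all 3. Hosts are longer and have more starts, with a median of 2 against 1, so genes were also compared at like length. With under 1 kb of eligible intron, the largest group of genes, the shares were closest, at 21.5% and 16.3%. With 1 to 3 kb they were 38.1% and 21.3%, and with 3 to 6 kb 37.5% and 17.8%. With 6 to 12 kb they were 39.8% and 23.7%, and with over 12 kb 47.9% and 16.4%. Hosts had more starts at the median in the group of 1 to 3 kb (2 against 1) and in that of over 12 kb (3 against 2), and as many in the other 3 groups.

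Host genes were sorted into lists of known pathways, and each list is described by its peaks per Mb of eligible intron, against 75.4 for all genes and 75.2 ± 1.90 in the replicates (SD, n = 3). Genes of the ecdysone response, the hormone programme of this stage, had 50 peaks in 14 of 23 genes, or 142 per Mb (125 ± 10.3 in the replicates). Eip78C, an ecdysone-induced nuclear receptor, had the strongest. Hr4, another nuclear receptor, had signals of 427, 321 and 480 in replicates 1 to 3, and Hr3 had 291, 170 and 278 at a summit that also lay within other overlapping genes. The Hr4 summit lay 2559 bp from a start of CR46447 and 9981 bp downstream of the nearest start of Hr4 itself. That of Hr3 lay 549 bp from a start of lncRNA:CR46322 and 17159 bp downstream of the nearest start of Hr3. Among the receptor gene and the early genes of the hormone, the highest IDR signal was 293 in EcR, 731 in Eip74EF, 280 in Eip75B and 123 in br. The 50 peaks had a median signal of 174 against 193 for all 1830, and 28 of them (56.0%) were supported in all 3 replicates against 72.2% of all 1830. With lncRNA:let7C, whose entry had not matched, the list had 54 peaks and 149.9 per Mb (133 ± 10.01).

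Signalling pathways of growth and patterning were also dense. Dpp and activin genes had 27 peaks in 9 of 16 genes, 248 per Mb (233 ± 19.1), of which 12 were in shn. The receptor gene wit had signals of 268, 284 and 300, and Dad, an inhibitor of the pathway, had 208, 131 and 169. EGFR and Ras genes had 36 peaks in 13 of 22 genes, 224 per Mb (212 ± 24.9). These included the kinase gene Raf (219, 161 and 194), the repressor gene aop (229, 145 and 141) and the receptor gene Egfr (170, 85.9 and 170). Wingless genes had 28 in 10 of 20, 151 per Mb (160 ± 16.5), with the receptor gene fz at 302, 174 and 231, the feedback inhibitor nkd at 297, 155 and 257 and the glypican gene dlp at 239, 143 and 187. Of these, wit was lowest in replicate 1 and aop in replicate 3, and the others in replicate 2. The fz summit lay 4778 bp from a start of CG13481 and 90586 bp downstream of the nearest start of fz itself.

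Hippo genes had 13 peaks in 7 of 15 genes, 167 per Mb (163 ± 14.9). The strongest were in ex, an upstream regulator (284, 216 and 284), dco, a casein kinase gene (227, 210 and 241), and wts, the core kinase (159, 133 and 176). The ex summit lay 2592 bp from a start of lncRNA:CR43717 and 10904 bp downstream of the nearest start of ex itself. Hedgehog genes had 7 in 3 of 9, 163 per Mb (171 ± 13.4), in rdx, an adaptor for protein breakdown (146, 69.5 and 104), the receptor gene ptc (100.1, 48.0 and 127) and the co-receptor gene boi (110, 59.4 and 45.9). Notch genes had 9 in 5 of 17, 80.2 per Mb in the IDR set and 89.2, 107 and 98.1 in replicates 1 to 3, each above the value of all genes there. The ligand gene Delta was left out of that count because its list entry did not match the annotation's symbol. With it, a step added after the data were seen, the list had 12 peaks in 6 of 18 genes, 103 per Mb (109 ± 4.96). Their strongest were neur, a ubiquitin ligase gene (466, 240 and 307), mam, a coactivator (320, 176 and 358), and fng, a glycosyltransferase gene (118, 72.1 and 168). Without Delta, only 1 of the 9 Notch peaks lay in a first intron, against 77.3% of all 1830 peaks.

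Chromatin and corepressor genes had 39 peaks in 14 of 34 genes, 239 per Mb (249 ± 12.7). Of the 39, 34 (87.2%) were supported in all 3 replicates, against 72.2% of all 1830 peaks. The 39 had a median signal of 257 against 193 for all 1830. After Trl and Tet the strongest was trx, a histone methyltransferase gene, at 389, 246 and 323. Insulin and TOR genes had 17 in 7 of 20, 178 per Mb (203 ± 6.05). Here Lk6 was followed by ImpL2, a secreted protein that binds insulin-like peptides (418, 279 and 321), and sima, a hypoxia-inducible factor (213, 148 and 181). Fat body and lipid genes had 11 in 6 of 12, 236 per Mb (250 ± 24.7). Against 77.3% and 72.2% of all 1830 peaks, all 11 lay in first introns and all were supported in 3 replicates. The 11 had a median signal of 306. These included SREBP, a lipid regulator (189, 137 and 165), foxo, a transcription factor under insulin control (180.5, 55.3 and 193), and Lsd-2, a lipid droplet protein (144, 88.7 and 118). Cell death and autophagy genes had 8 in 3 of 14, 213 per Mb (275 ± 61.4), of which Diap1, an inhibitor of caspases, held 5 and had 310, 178 and 251 at the strongest. The other hosts were Atg1 (181, 84.8 and 154), whose summit lay also in CG42709, and Atg5 (142, 84.1 and 119), inside CG1677 and lncRNA:CR44357.

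Neuronal, patterning, axon guidance, muscle and zinc transport genes had fewer peaks per Mb than all genes. Neuronal excitability and synapse genes had 5 peaks in 4 of 22 genes, 19.0 per Mb in the IDR set and in each replicate. The strongest was in Syn, the synapsin gene (207, 152 and 143). Its summit lay 621 bp from a start of Timp and 22939 bp downstream of the nearest start of Syn itself. Next came elav, which encodes an RNA-binding protein of neurons (77.4, 62.6 and 90.9), and the potassium channel gene Shaw (56.7, 41.2 and 64.3). The elav summit also lay within arg and lncRNA:enrr. Leg, eye and wing patterning factors had 7 in 5 of 34 genes, 27.9 per Mb (22.6 ± 4.603), and their highest signal was 216, in bab1 (54.1, 61.5 and 103). The homeotic genes Antp (75.1, 38.1 and 51.8) and Ubx (51.9, 38.6 and 46.9) followed. The Ubx summit lay 1981 bp from a start of asRNA:PS4 and 16280 bp downstream of the nearest start of Ubx itself. Axon guidance and adhesion genes had 29 in 14 of 39, 42.9 per Mb (45.4 ± 4.27), although 1 in the phosphatase gene Ptp10D reached 297, 242 and 266. The adhesion gene kirre had 196, 204 and 241, at a summit that also lay within CG32795, 2570 bp downstream of a start of that gene. The teneurin gene Ten-a had 242, 159 and 188. Muscle genes had 6 in 3 of 20, 43.1 per Mb (36.0 ± 7.19), in Msp300, a nesprin gene (288, 192 and 269), the transcription factor gene Mef2 (176, 83.0 and 108) and the tropomyosin gene Tm1 (24.6, 16.3 and 63.8). Zinc transport genes had 1, in ZnT41F (55.0, 58.7 and 69.1), in 1 of 17 genes, or 31.9 per Mb (42.6 ± 18.4). The blood cell and GATA factor list was not among these: its 10 peaks of the IDR set, all in ush, gave 104 per Mb (86.7 ± 12.01), with replicate 3 at 72.8.

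**Figure D4:**
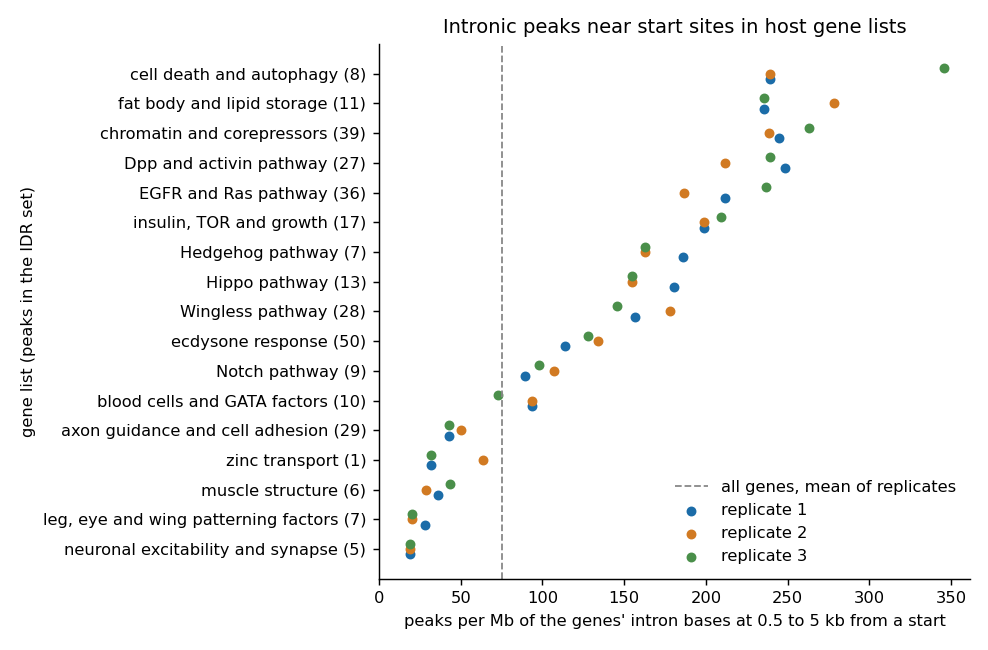
Intronic peaks near starts per Mb of eligible intron for 17 host gene lists, with the number of peaks in the IDR set in brackets; points are replicates and the dashed line is the mean for all genes (75.2 per Mb). Chromatin, Dpp and EGFR genes lie to the right of the line in all 3 replicates, and neuronal and patterning genes to the left.

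These densities describe the lists, and no test of a list was made. In groups of genes by length of eligible intron, density ran from 42.3 to 87.3 peaks per Mb. These groups held 583 to 5956 genes each and the lists at most 39, so the range is no yardstick for a list. The part of intron length in the list densities was not tested. Many lists rest on few genes, as shn in the Dpp list and Diap1 in the cell death list show. By chromosome, the X had 90.1 ± 5.78 peaks per Mb of eligible bases and 2L had 66.7 ± 1.91 (SD, n = 3), and these did not overlap. Arms 2R, 3L and 3R had 72.6 ± 0.793, 75.6 ± 1.72 and 72.4 ± 2.42. Chromosome 4 had 3 peaks in the IDR set on 309 kb of eligible bases, and the Y had none on 49.4 kb. The strongest peak on chromosome 4 in a first intron lay in Sox102F (89.8, 34.6 and 58.5 in replicates 1 to 3), and that in a later intron in asRNA:CR43957 (78.9, 54.1 and 76.9). On 3R the strongest later intron peak lay in CG5854 (316, 201 and 282).

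Base composition changed sharply around the summits. Windows of 201 bp had 34.2% G + C, against 40.9% in windows 1000 bp to either side that overlap no IDR peak, a difference of -6.68 percentage points. In the replicates the difference was -6.38 ± 0.217 (SD, n = 3), lower at the peaks in all 3. Eligible intron bases as a whole had 39.2%. The dip was narrow: within 25 bp of the summit the mean was 31.8 ± 0.339% in the replicates, at 176 to 200 bp it was 43.8 ± 0.481%, and at 276 to 300 bp it was 44.6 ± 0.363%. Beyond 700 bp it was close to 40.4%. The peaks were therefore a short stretch rich in A and T, between shoulders richer in G and C than the sequence farther away. With windows reaching 200 bp to either side, which take in the shoulders, the difference was only -2.40 ± 0.119. Deep intronic peaks and intergenic peaks near starts had a like shape in the IDR set, at 31.0% and 30.6% within 25 bp. Start-site peaks had the dip, at 32.4%, but no fall after the shoulder: they had 44.1% at 276 to 300 bp and 43.6% at 976 to 1000 bp, where the intronic peaks near starts had 44.7% and 41.1%. First and later introns had 34.3% and 33.7% in the 201 bp windows. Bases in lower case in the reference, which marks repeats, made up 23.6% of the windows and 17.9% of flanking windows. No source used here says whether reads that match several places were kept, and the part of these bases in the signal was not tested.

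**Figure D5:**
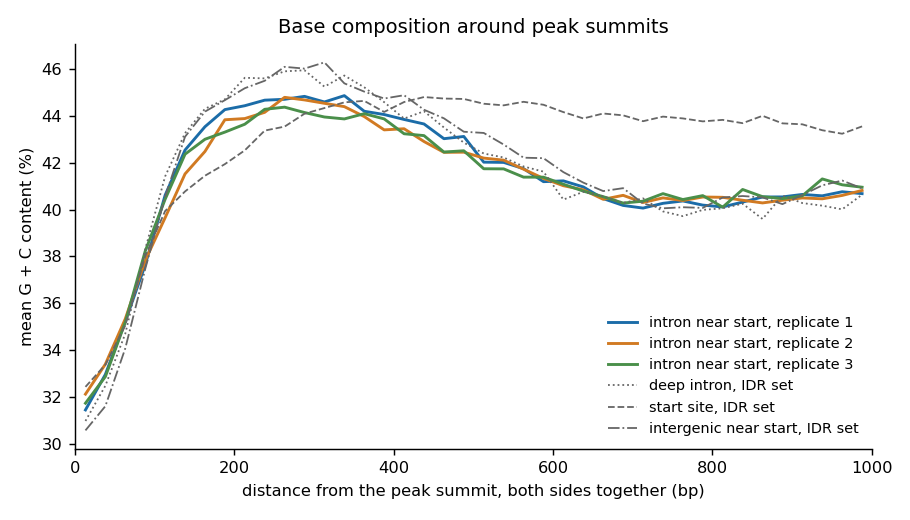
Mean G + C content in steps of 25 bp by distance from the summit, both sides together, for intronic peaks near starts in 3 replicates and for other IDR peaks. The replicates run from 31.8% next to the summit to 44.6% near 300 bp and 40.4% beyond 700 bp.

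Known consensus letters, searched on both strands of the 201 bp windows, differed from the flanks in both directions, and in percentage points most for letters made of A and T. TATAAA was in 39.7% of windows and 22.9% of flanking windows, and a run of AAAAAAAA in 21.3% and 14.3%. TAATTA, a core bound by homeodomain proteins, was in 18.0% and 14.4%. The G + C content was lower in the same windows, and its part in these shares was not tested. TGANTCA, the AP-1 site, was in 5.46% and 4.61%, with 6.07 ± 0.242% and 4.87 ± 0.226% in the replicates (SD, n = 3). GAGAGAG, the site of the GAGA factor, was in 3.17% and 4.67%. In windows tiled over introns that meet the rule, away from IDR peaks, it was in 2.65%, so its direction depended on the background. TATCGATA, an element common at start sites, was in 0.328% of windows, 0.600% of flanking windows and 3.12% of start-site windows. A run of CACACACA was in 3.72% and 5.87%, and the palindromic E-box CACGTG in 1.48% and 1.99%. The GATA site AGATAAG was found in 3.06% of windows and 2.94% of flanking windows. The Zelda site CAGGTAG stood in 0.929% and 1.07% of them. The Grainyhead site AACCGGTT stood in 0.328% and 0.474%, and in 0.297% of the tiled windows. The other letters differed from the tiled windows in the same direction as from the flanks.

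A pair of words of 8 letters was far more frequent in the windows around summits than in flanking windows. They were chosen after their values were seen, from the 2173 words present in at least 30 windows ranked by their share against the flanks, so no test applies. CACTGAGA was in 4.21% of the 201 bp windows (77 peaks) and 0.537% of flanking windows, and in 0.576% of 117105 windows tiled over eligible introns away from IDR peaks. In the replicates it was in 4.00 ± 0.185% against 0.513 ± 0.0560% (SD, n = 3). CACAGTGG was in 4.21% (77 peaks) and 0.884%, or 4.03 ± 0.203% and 0.860 ± 0.0386% in the replicates. The words overlap little: 153 peaks held at least 1 of them and 1 held both, against 1.39% of flanking windows with at least 1. Both contain the letters CACTG on 1 strand, which were in 45.7% of windows and 28.8% of flanking windows. Some other words near the top of the ranking, such as ACACTGAG and CTGAGAGA, are CACTGAGA shifted by a few bases. Others are not: CTGTGTAC was in 1.75% of windows and 0.126% of flanking windows, and TACACAGA in 2.84% and 0.537%.

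These words were less frequent within 50 bp of the summit than at 50 to 100 bp to either side. Of 145 matches of CACTGAGA within 400 bp of a summit, 23 and 32 lay 50 to 100 bp to the left and right, 9 and 18 within 50 bp, and 0 to 8 in each step of 50 bp beyond 200 bp. CACAGTGG lay somewhat farther out: of 245 matches, 28 and 38 were at 50 to 100 bp, 33 and 30 at 100 to 150 bp, and 8 and 14 within 50 bp. In the ImpL2 sequence above the word stands near the left end, in Spn near the right end, and CG32264 holds CACAGTGG on both sides of the summit. The base before CACTGAGA was A in 57.5% and G in 38.75% of 80 matches, and the stretch after it was A-rich. The words were not confined to introns near starts: CACTGAGA was in 5.94% of deep intronic, 5.33% of intergenic near-start and 1.93% of start-site windows, and CACAGTGG in 4.21%, 3.12% and 3.42%. In 4 groups of the 1830 peaks from the strongest to the weakest signal, at least 1 word was in 11.1%, 8.97%, 5.69% and 7.64%. Peaks with CACTGAGA had a median signal of 211 against 193 without, and peaks with CACAGTGG 222 against 192. Spn, ImpL2, CG32264 and prage, chosen after their values were seen, had replicate signals of 331, 218 and 315, of 418, 279 and 321, of 403, 320 and 389, and of 350, 270 and 367. Spn encodes spinophilin, a partner of protein phosphatase 1. In each of the 4, replicate 2 was the lowest.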

How the data were processed

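The authors deposited lists of peak intervals on build dm6 for each of the 3 replicates, for the replicates together, and a final IDR set derived from them, per the file listings that accompany the samples. Each interval has a signal value, a significance value on the −log10 scale and a summit offset, all deposited by the authors. Signal was used as deposited, the −log10 values were not used in any result, and the summit was the 0-based start plus the offset. No source used here gives the peak caller, aligner, control correction, IDR threshold or read depth, so the signals carry no error from read counts. Lists on build dm3 were not used.

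Summits were placed on the Release 6 genome sequence from RefSeq and the Ensembl release 115 annotation without transposable elements (18277 genes on the main chromosomes). Densities divide summits by the bases of the same kind. Values per replicate come from the strongest 6469 calls and are given as mean ± SD (n = 3), since the IDR set has no replicates. Scripts (Python 3.11.15, numpy 2.4.6, pandas 2.3.3, scipy 1.17.1) were tested on simulated data. The members, gene lists (404 entries, 6 without a match, of which 3 were looked up later under the annotation's symbols; mTor added 0 peaks) and tests were chosen with earlier results of these data known. Named genes are the hosts of the 15 strongest peaks, the 6 genes with most peaks, 3 hosts for each list, the strongest peak of each chromosome arm in a first and a later intron, the peaks of highest and lowest lowest-replicate signal, and those at the edges of the distance rule. Others were chosen after their values were seen. Sequence letters were searched in windows of 100 bp to either side of the summit. Alternatives changed distance limits, gene set, window size, overlap rule and replicates.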

Additional observations from a re-analysis of the deposited data

How the results depend on the processing

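Of 64 alternative values for 8 results, 36 moved by less than the spread between replicates (for the support share, its 95% interval), 28 moved by more and 0 changed direction as means of the replicates. In the IDR set itself, the signal ratio to intergenic peaks near starts was 1.09, and 0.995 in the stronger 50% (1.01 as the mean of the replicates). With the lower distance limit at 300 or 1000 bp, the share of peaks was 32.6% or 20.8% and the density ratio 2.03 or 1.52. With the upper limit at 3000 or 10000 bp the share was 21.5% or 36.9% and the ratio 1.97 or 1.66, and with protein-coding genes only 26.9% and 1.88. The ratio of first to later introns was 1.63 with intron 1 of every transcript, 1.79 with the longest transcript and 2.70 among the stronger 50% of calls. The signal ratio to deep intronic peaks was 1.10 with the mean of log2 signal, 1.07 in the stronger 50% and 1.10 with the strongest of overlapping peaks. The GC difference was -8.56 points with windows of 50 bp to either side, -2.40 with 200 bp, -7.82 with flanks at 500 bp, -5.01 with intronic flanks and -7.26 in the stronger 50%. The supported share was 66.8% with overlap of 50% of the interval, 63.5% with summits within 100 bp, 97.8% with every relaxed call and 40.1% with the strongest 3234 calls. Apart from fewer or more calls by construction, the cause of these shifts was not tested. Without 1 replicate, the share ran from 28.0% to 28.6%, the density ratio from 1.77 to 1.83, the first to later ratio from 2.42 to 2.48, and the signal ratios were 1.09 (deep intronic), 0.912 to 0.958 (start sites) and 1.04 to 1.07 (intergenic). The GC difference ran from -6.50 to -6.31 and support in the remaining replicates from 78.4% to 78.9%. No paired analysis was possible because there was 1 group. Depth is unknown, so weak peaks cannot be told from missed ones.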
